A study of Mus musculus with 24 samples.

Results

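The comparison described here is the interaction between the AKT and NRas plasmids and thioacetamide (TAA) in mouse liver: whether TAA changed each gene by the same factor in livers that carried the oncogene plasmids as in livers that did not. It is the effect of TAA in SB/AKT/NRas livers minus the effect of TAA in SB livers, on the log2 scale, so a value of 0 means that the fold changes of the oncogenes and of TAA simply multiplied. It rests on 17 of the 24 livers of the series, 1 library per mouse, in 4 groups: SB/AKT/NRas + TAA (n = 5), SB/AKT/NRas + saline (n = 4), SB + TAA (n = 4) and SB + saline (n = 4). Every gene was eligible, and 19381 of the 53467 genes in the table were expressed highly enough to be tested, which meant a level of 0.5 CPM (counts scaled to the library total) or more in 2 or more libraries.

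All mice were male and of the strain C57BL/6JAusb, and were 14 to 15 weeks old when plasmids were injected hydrodynamically into the tail vein. Every group, controls included, received 0.8 µg of the Sleeping Beauty transposase plasmid (SB), which inserts the other plasmids into the genome. The SB/AKT/NRas groups also received 10 µg of each of 2 plasmids for constitutively active proteins, a membrane-anchored AKT (myr-AKT) and NRasV12, which was driven by the CAGGS promoter. From day 8 to 10 the mice had 10 to 11 intraperitoneal injections over 5 to 6 weeks, either of TAA, at 100 mg/kg and then 200 mg/kg, or of the same volume of saline. Such plasmids enter only some hepatocytes, and whole pieces of liver were sequenced, so tumor and other tissue were measured together and more cells of a type cannot be told apart from more RNA per cell.

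TAA is turned into a toxic S-oxide by cytochrome P450 enzymes of the hepatocytes around the central vein, and repeated doses cause cell death there, regenerative division, inflammation and fibrosis. AKT and RAS are the central switches of growth factor signaling: AKT drives lipid synthesis and cell growth, RAS drives the MAPK cascade and division, and together they transform hepatocytes. A toxin and a pair of oncogenes can therefore reach some of the same programs, and the interaction measures how the 2 combine gene by gene.

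Total counts ranged from 2152510 to 3399247 per liver (median 2864888), and 15478 to 19026 genes had a count. SB + saline livers had scaling factors (TMM, which correct for a few genes that take many counts) of 0.772 to 0.817 and 15.6% to 16.7% of records assigned to a gene, while SB + TAA livers had 0.943 to 1.145 and 20.7% to 23.1%, with no overlap. The part of this difference in the results was not tested. In SB + TAA 4 the 20 skeletal muscle markers summed to 12000 CPM, against 15.6 to 56.1 CPM in the other 16 livers; 19 were tested for the interaction and none passed in edgeR, DESeq2 or limma-voom (9 at an unadjusted p under 0.05 in edgeR). SB/AKT/NRas + saline 1 stood close to the SB + saline livers in its scaling factor (0.846 against 1.159 to 1.194 in the other 3 livers of its group) and had the lowest share of assigned records, 13.8%. Results are therefore given with all livers and without these 2. Hepatocyte markers such as Alb and Ttr were present in every group, 12 of 12, with summed levels of 93900 to 132000 CPM in SB/AKT/NRas + TAA, 88000 to 148000 in SB/AKT/NRas + saline, 111000 to 161000 in SB + TAA and 153000 to 181000 in SB + saline.

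The human NRAS transgene was found in all 9 livers labelled as having received it. It stood at 34, 47.7, 18.5, 17.9 and 75.7 CPM in SB/AKT/NRas + TAA and at 12.3, 55.3, 218 and 66.1 CPM in SB/AKT/NRas + saline, with 0 to 2 counts in each SB liver. The 2 groups overlapped, with means of 38.8 ± 24 CPM (SD, n = 5) and 88.0 ± 89.9 CPM (SD, n = 4). Their difference of −0.75 on the log2(CPM + 0.5) scale was within the spread between livers (two-sided exact permutation test over 126 arrangements, p = 0.452). SB/AKT/NRas + saline 1 had the lowest level of the 9, and without it the difference was −1.46. Mouse Nras averaged 53.5 and 47.9 CPM with the plasmids and TAA or saline, and 40.3 and 29.6 CPM in SB + TAA and SB + saline, with an interaction of −0.29 (edgeR adjusted p = 0.628). Reads of the human and mouse genes can be exchanged where their sequences match, so the mouse value is uncertain. Mouse Akt1 averaged 21, 38.9, 18.5 and 17.4 CPM in the same order of groups, with an interaction of −0.99 that did not pass the test (edgeR adjusted p = 0.208).

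Most genes called with all livers in edgeR showed a shortfall: TAA and the oncogenes each raised them, and the combination raised them about as far as either alone. A gene was called where the edgeR quasi-likelihood test, adjusted over all genes by Benjamini-Hochberg, gave an adjusted p under 0.05 and the absolute log2 value was over 1. By that rule 145 of 19381 genes (0.748%) were called, 113 with an interaction below 0 (0.583%) and 32 above 0 (0.165%). The adjusted p alone passed 147 (0.758%), 113 below 0 and 34 above 0. In all 113 genes below 0, TAA alone and the oncogenes alone both raised the fitted level, with medians of 2.98 and 2.88 (log2), yet the combination stood at a median of only 2.46 above SB + saline and the median interaction was −3.23. Adding TAA to livers with the oncogenes moved these 113 genes by a median of −0.41, and 98 of them by less than 1 either way. The combination lay short of both single effects for 71 of the 113, between them for 33 and past both for 9. Both single effects enter the interaction with a minus sign, so picking genes by it favors such patterns on either side of 0. These counts are a description with no test. With limma-voom, 40 genes were called below 0 and 43 above 0.

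The 32 genes above 0 mostly had negative single effects, but by the medians their combination stood near SB + saline rather than near either single effect. In 25 of them both single effects were negative, and the combination lay short of both in 21 and between them in 4. Their medians were −1.30 for TAA in SB livers, −0.59 for the oncogenes in saline livers and −0.08 for the combination, so the livers with both stood close to SB + saline. The median interaction was 1.93. The median over all genes tested was −0.11, with single-effect medians of 0.09 and 0.07.

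**Figure D1:**
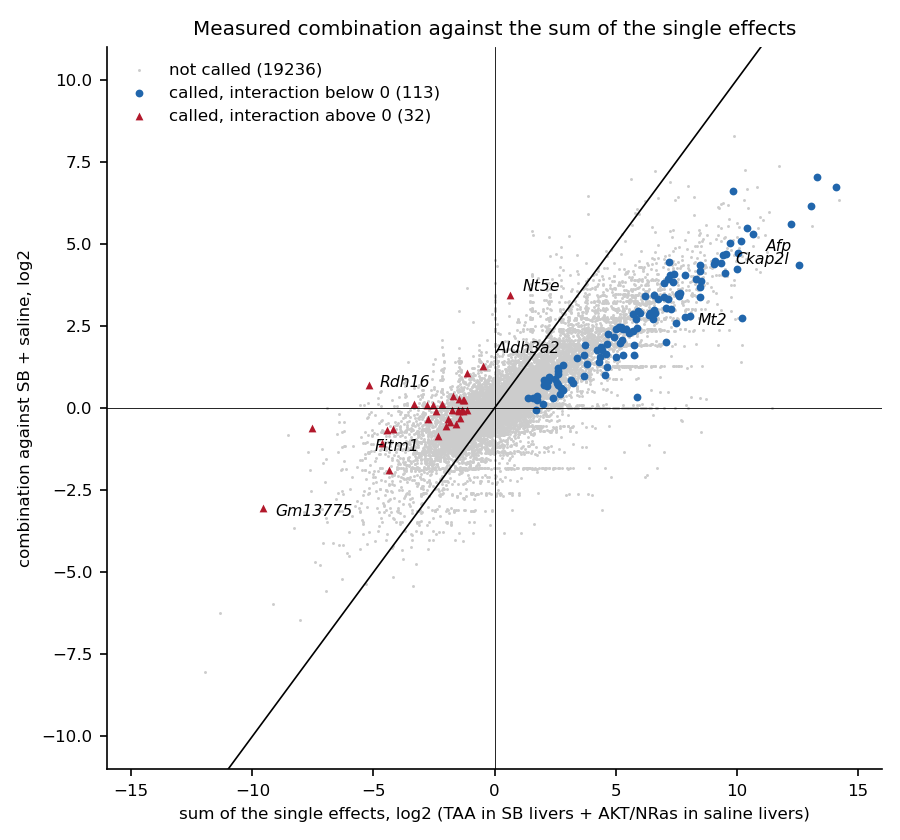
Each point is 1 of 19381 genes, with the sum of the 2 single log2 effects on the x axis (TAA in SB livers plus AKT/NRas in saline livers) and the measured log2 difference between SB/AKT/NRas + TAA and SB + saline on the y axis. On the diagonal the fold changes multiply; the 113 called genes with an interaction below 0 (circles) lie below it at positive sums, the 32 above 0 (triangles) lie above it, and Nt5e is the called gene above the diagonal with a positive sum.

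Sorted by class, 143 of the 145 called genes were less than additive (the interaction ran against the sum of the single effects and left the combination nearer to SB + saline than that sum), 1 was more than additive (Nt5e) and 1 reversed (Aldh3a2, where the combination ended on the other side of SB + saline, at least as far from it as the sum). Of the 143, 11 also ended on the other side, but less far from SB + saline than the sum, Slc13a3 the furthest past it (a sum of −1.12 and a combination of 1.07). All 143 had a sum of single effects of at least 1 in size. The interaction and the sum share livers with opposite sign, so noise alone favors the first class: it holds 78.9% of all genes tested, with 15.1% more than additive and 6.04% reversed. The class counts are therefore a description with no test. On the linear CPM scale, where levels rather than fold changes add up, the counts were 141, 2 and 2.

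The number of calls depended on single livers. The called genes kept their direction, but they were picked from these same livers, so this is no independent check. Without SB + TAA 4, 65 genes were called (50 below 0 and 15 above 0), 64 of them among the 145, and all 65 were less than additive. Without SB/AKT/NRas + saline 1 the count was 855 (509 below 0 and 346 above 0) and included all 145, with 849 less than additive, 1 more than additive and 5 reversed. Without both livers it was 536 (319 below 0 and 217 above 0), of which 143 were among the 145, with 533, 1 and 2 genes in the 3 classes. Leaving out SB + TAA 2 gave 448 calls. SB + saline 1, 2, 3 and 4 gave 48, 81, 82 and 71 when left out, SB + TAA 1 gave 73, SB/AKT/NRas + saline 2, 3 and 4 gave 89, 53 and 89, and SB/AKT/NRas + TAA 3 and 4 gave 82 and 76. In each of these fits all 145 genes kept their sign. The split between directions also moved with the method: 22.1% of calls were above 0 with TMM scaling, 4.68% with scaling by library size alone (which shifted the median of all genes to −0.52) and 51.8% with limma-voom, which called 83 genes. DESeq2 called 294 genes. Numbers of list members that pass in other fits, given below, move with these totals and are no result about a list by themselves.

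**Figure D2:**
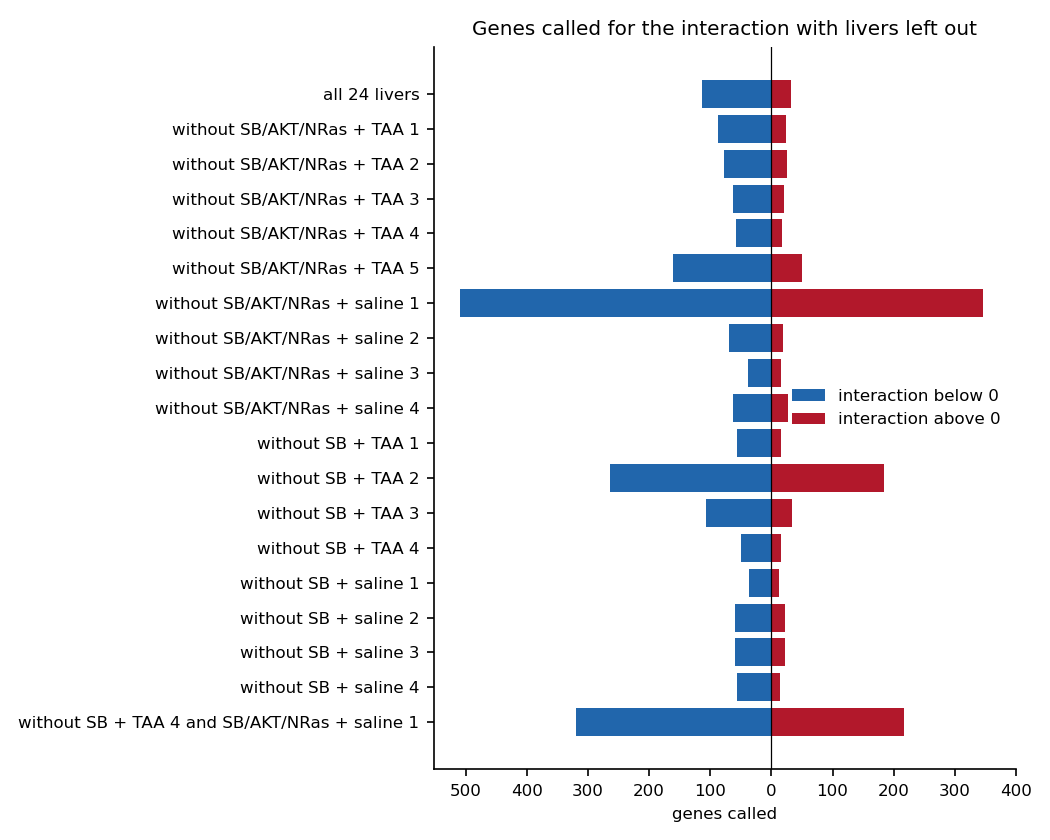
Bars give the number of genes called for the interaction below 0 (left) and above 0 (right), with all 24 livers at the top and then with each of the 17 livers left out and with SB + TAA 4 and SB/AKT/NRas + saline 1 both left out. The counts reach 509 and 346 without SB/AKT/NRas + saline 1 and fall to 36 and 12 without SB + saline 1.

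Genes of mitosis and cytokinesis had the most members below 0: 11 of 28 passed in edgeR, all below 0 (20 in DESeq2 and 1 in limma-voom), where 0.583% of all genes did, and the fitted interaction of all 28 was negative (median −3.17, against −0.11 over all genes). Their median difference from SB + saline was 3.11 in SB/AKT/NRas + TAA livers, 3.13 in SB/AKT/NRas + saline livers and 3.15 in SB + TAA livers, so the 3 treated groups stood at nearly the same median level. Tpx2, which nucleates spindle microtubules around chromosomes (ENSMUSG00000027469, GRCm38 chromosome 2, 152847964 to 152895321), had 6.67, 12, 5.96, 4.47 and 10.0 CPM in SB/AKT/NRas + TAA, 1.32, 11.5, 9.94 and 13.7 CPM in SB/AKT/NRas + saline, 13.4, 9.47, 7.65 and 11.1 CPM in SB + TAA and 0.428, 1.14, 0.401 and 0.856 CPM in SB + saline. Every treated liver lay above every SB + saline liver, SB/AKT/NRas + saline 1 only narrowly, and the 3 treated groups overlapped. TAA changed Tpx2 by −0.24 ± 0.39 (SE) in SB/AKT/NRas livers and by 3.86 ± 0.64 in SB livers, an interaction of −4.10 ± 0.77 (edgeR adjusted p = 0.00991).

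Cdc20, the activator of the anaphase-promoting complex that triggers chromosome separation (ENSMUSG00000006398, chromosome 4, 118432901 to 118437352), had 21.4, 20.2, 11.6, 9.63 and 15.5 CPM in SB/AKT/NRas + TAA, 5.28, 13.2, 18.5 and 21.2 CPM in SB/AKT/NRas + saline, 21.5, 27.6, 4.89 and 24.9 CPM in SB + TAA and 1.28, 2.27, 0.802 and 1.71 CPM in SB + saline. Again no SB + saline liver reached a treated one. Its interaction was −3.62 ± 0.74 (edgeR adjusted p = 0.0162). Prc1, which bundles the microtubules of the central spindle, and Birc5 (survivin, a subunit of the chromosomal passenger complex) had interactions of −4.33 ± 0.83 and −3.58 ± 0.70 (edgeR adjusted p = 0.0115 for each). The remaining 7 that passed were Mki67, Ccnb1, Top2a, Racgap1, Cenpf, Ccna2 and Kif11, named here after their values were seen. Without SB + TAA 4, 8 mitosis genes passed, without SB/AKT/NRas + saline 1, 21, and without both, 19. Of all 19381 genes, 50, 509 and 319 were called below 0 in these fits. With each liver left out in turn the number ranged from 4 to 21.

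**Figure D3:**
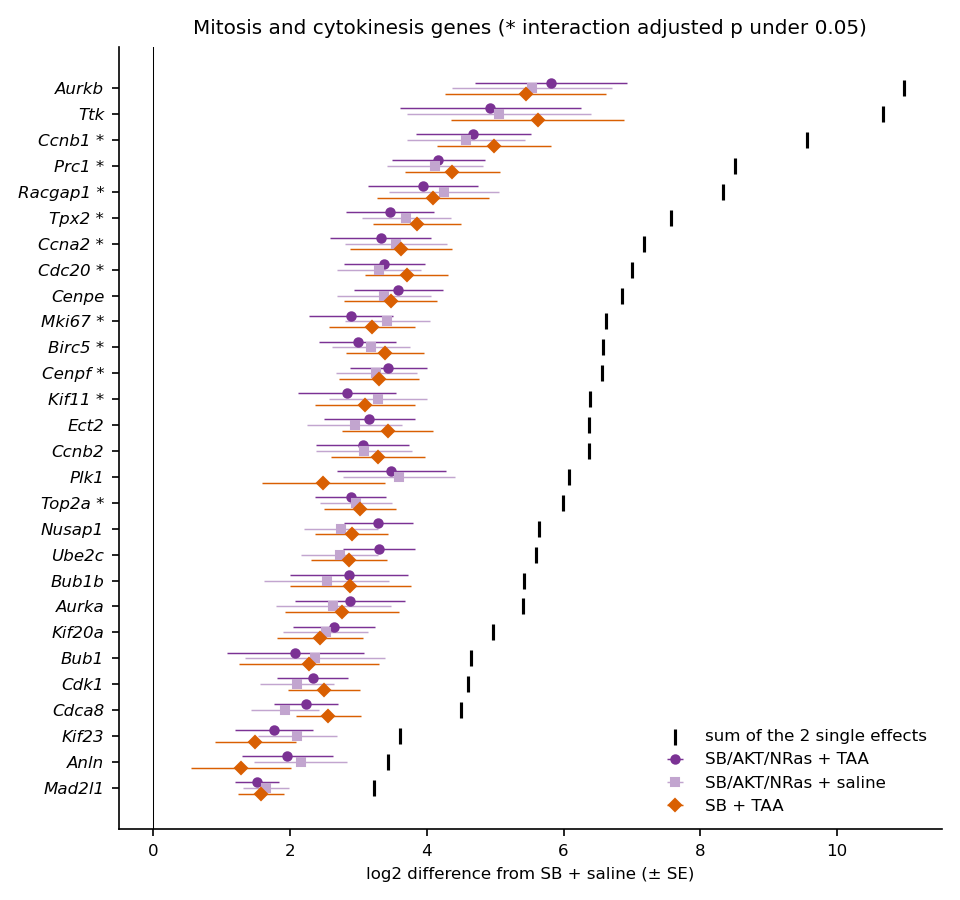
For each of 28 mitosis and cytokinesis genes, the log2 difference from SB + saline (± SE) is shown for SB/AKT/NRas + TAA (circles), SB/AKT/NRas + saline (squares) and SB + TAA (diamonds), with the sum of the 2 single effects as a black tick; stars mark the 11 genes that passed. The 3 symbols of a gene lie close together and the tick lies far to their right.

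Ckap2l and Knstrn, both proteins of the mitotic spindle, were among the called genes with the smallest p. Ckap2l (ENSMUSG00000048327, chromosome 2, 129268210 to 129297212) had 7.68, 4.42, 5.96, 6.53 and 8.77 CPM in SB/AKT/NRas + TAA, 2.2, 9.4, 5.4 and 10.1 CPM in SB/AKT/NRas + saline, 7.39, 5.53, 4.89 and 10.5 CPM in SB + TAA and 0.428, 0, 0 and 0.428 CPM in SB + saline. Each 0.428 is 1 count, so the baseline is known only roughly. The interaction was −4.79 ± 0.79 (edgeR adjusted p = 0.00565), and −4.77 without both livers (adjusted p = 0.00038). Knstrn (ENSMUSG00000027331) averaged 6.27 ± 1.63, 9.08 ± 6.22, 9.14 ± 2.07 and 0.428 ± 0.856 CPM in SB/AKT/NRas + TAA, SB/AKT/NRas + saline, SB + TAA and SB + saline (SD), with an interaction of −4.78 ± 0.84 (edgeR adjusted p = 0.00694).

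Promoters of Cdc20 and Ckap2l are shown because the mitosis genes moved together. The DREAM and B-MYB complexes act on mitotic promoters through the element TTTGAA, and NF-Y binds CCAAT. Ckap2l is not on the list of 28 mitosis genes that is counted below. The 120 bases before the RefSeq start of Cdc20 and of Ckap2l (GRCm38.p6) hold both motifs, each searched on both strands and marked in capitals; ATTGG and TTCAAA are the same motifs on the other strand.
Cdc20 (chr4:118437344-118437463, minus strand): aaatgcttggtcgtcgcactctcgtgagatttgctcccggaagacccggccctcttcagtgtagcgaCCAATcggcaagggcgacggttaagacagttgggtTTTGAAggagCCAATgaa
Ckap2l (chr2:129297213-129297332, minus strand): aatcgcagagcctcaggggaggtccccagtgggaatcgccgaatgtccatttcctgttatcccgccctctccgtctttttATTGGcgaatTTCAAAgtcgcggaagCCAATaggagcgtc
CCAAT was found in 19 of the 24 mitosis genes with a RefSeq promoter, and in 22.1% of all 27025 promoter windows of that length. TTTGAA was found in 7 of the 24 and in 7.24% of all windows, and both motifs in 6 of the 24 and in 1.55%. A match of letters is a description of the sequence only.

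DNA replication genes had a list median of −1.56. Of 28 tested, 6 passed in edgeR, all below 0, against 8 in DESeq2 and 0 in limma-voom. Mcm6, a subunit of the replicative helicase (ENSMUSG00000026355, chromosome 1, 128331590 to 128359664), had 14.0, 14.5, 8.47, 9.28 and 16.8 CPM in SB/AKT/NRas + TAA, 3.52, 17.4, 17.6 and 14.0 CPM in SB/AKT/NRas + saline, 35.3, 6.32, 23.9 and 31.6 CPM in SB + TAA and 1.71, 0, 3.21 and 3.85 CPM in SB + saline. SB/AKT/NRas + saline 1 lay within the SB + saline range, and all other treated livers lay above it. The interaction of Mcm6 was −3.45 ± 0.69 (edgeR adjusted p = 0.0144). Lig1, the ligase that joins Okazaki fragments, had −2.55 ± 0.51, and Rfc4 and Mcm7, parts of the clamp loader and the helicase, had −1.53 ± 0.33 and −1.62 ± 0.35 (edgeR adjusted p = 0.0148, 0.0238 and 0.0238). Without SB + TAA 4 only 2 genes of this list passed (adjusted p = 0.0728 for Mcm7 and 0.0761 for Rfc4), without SB/AKT/NRas + saline 1, 13, and without both, 9. Calls below 0 over all 19381 genes were 50, 509 and 319 in these fits.

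Targets of p53, the transcription factor of the DNA damage response, passed in 2 of 20 cases in edgeR, 3 in DESeq2 and 0 in limma-voom. Bax, which permeabilizes mitochondria in apoptosis (ENSMUSG00000003873), averaged 50.4, 55.3, 57.7 and 28.1 CPM in SB/AKT/NRas + TAA, SB/AKT/NRas + saline, SB + TAA and SB + saline, with an interaction of −1.18 ± 0.27 (edgeR adjusted p = 0.0328). Tnfrsf10b, the receptor of the death ligand TRAIL (ENSMUSG00000022074), averaged 5.07, 4.83, 3.89 and 0.107 CPM, with −4.67 ± 1.12 (edgeR adjusted p = 0.0419), and 3 of its 4 SB + saline livers were at 0. Neither passed without SB + TAA 4 (adjusted p = 0.0809 and 0.0712), while 9 genes of the list passed without SB/AKT/NRas + saline 1 and 6 without both livers. Over all 19381 genes the calls below 0 rose as well, to 509 and 319, from 113 with all livers.

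All 17 markers of monocyte-derived macrophages had a negative interaction (median −2.52), and 4 passed in edgeR: Mmp12, Cd63, Gpnmb and Ccr2. The count was 8 in DESeq2 and 1 in limma-voom, 2 without SB + TAA 4, 11 without SB/AKT/NRas + saline 1 and 8 without both. With those livers left out, 50, 509 and 319 of all 19381 genes were called below 0. Mmp12, the macrophage elastase (ENSMUSG00000049723, chromosome 9, 7344381 to 7369499), had 18.4, 8.52, 5.33, 4.81 and 9.52 CPM in SB/AKT/NRas + TAA, 0.879, 13.2, 17 and 11.7 CPM in SB/AKT/NRas + saline, 37.0, 6.71, 17.4 and 28.4 CPM in SB + TAA and 0.428, 0.568, 0.401 and 0.428 CPM in SB + saline. The SB + saline livers stood below all treated livers, with SB/AKT/NRas + saline 1 nearest to them. Its interaction was −5.77 ± 0.98 (edgeR adjusted p = 0.00694; −5.96 and 0.000269 without both livers). Cd63, a lysosomal tetraspanin (ENSMUSG00000025351), averaged 259 ± 78.2, 182 ± 170, 222 ± 72.8 and 15.2 ± 6.17 CPM (SD), with −3.35 ± 0.66 (edgeR adjusted p = 0.0138), and its count is uncertain because the copy Cd63-ps was called as well. Gpnmb, a glycoprotein of phagocytes, had −4.66 ± 1.09 and Ccr2, the receptor of Ccl2 on monocytes, −2.67 ± 0.65 (edgeR adjusted p = 0.0371 and 0.0473), and neither passed without SB + TAA 4 (adjusted p = 0.0778 and 0.134).

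Clec7a (dectin-1, a receptor of myeloid cells for fungal glucans; ENSMUSG00000079293, chromosome 6, 129461591 to 129472779) had 34.4, 18.9, 9.09, 12.4 and 22.3 CPM in SB/AKT/NRas + TAA, 9.67, 16.4, 13.9 and 20.5 CPM in SB/AKT/NRas + saline, 30.2, 26.4, 31.8 and 27.9 CPM in SB + TAA and 3.42, 1.71, 4.81 and 4.28 CPM in SB + saline. It was highest and most even in SB + TAA, and all SB + saline livers lay below the other 3 groups. The interaction was −2.63 ± 0.46 (edgeR adjusted p = 0.00694). Among chemokines, which attract leukocytes, Ccl5 had −2.80 ± 0.61 and Ccl2 −4.14 ± 0.95 (edgeR adjusted p = 0.0238 and 0.0322), 2 of 29 tested genes of the NF-κB and chemokine list (median −1.69). Ccl2 did not pass without SB + TAA 4 (adjusted p = 0.0778). The list had 3 members passing in DESeq2 and 0 in limma-voom, 1 without SB + TAA 4, 9 without SB/AKT/NRas + saline 1 and 8 without both. Leaving out those livers gave 50, 509 and 319 calls below 0 over all 19381 genes.

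Interferon-stimulated genes had a list median of −0.98, and 2 of 33 passed in edgeR (3 in DESeq2 and 1 in limma-voom, 5 without SB/AKT/NRas + saline 1 and 4 without both livers). Without these livers, 509 and 319 of all 19381 genes were called below 0. Isg15, a ubiquitin-like modifier (ENSMUSG00000035692, chromosome 4, 156199424 to 156200818), had 20.4, 19.9, 18.2, 16.5 and 25.1 CPM in SB/AKT/NRas + TAA, 27.3, 25.1, 30.4 and 33.8 CPM in SB/AKT/NRas + saline, 22.2, 16.2, 16.5 and 14.9 CPM in SB + TAA and 6.42, 6.25, 11.6 and 11.6 CPM in SB + saline. Here the highest levels were those of SB/AKT/NRas + saline, SB/AKT/NRas + saline 1 included, and TAA changed it by −0.54 ± 0.20 in SB/AKT/NRas livers and by 0.94 ± 0.25 in SB livers. The interaction was −1.48 ± 0.32 (edgeR adjusted p = 0.0238). Cxcl10, a chemokine for T cells, had −3.47 ± 0.74 (edgeR adjusted p = 0.0231).
The 120 bases before the start of Isg15 show 3 overlapping copies of GAAA-(any 2 bases)-GAAA, the core of the element through which interferon acts, in capitals as 1 run.
Isg15 (chr4:156200819-156200938, minus strand, GRCm38.p6): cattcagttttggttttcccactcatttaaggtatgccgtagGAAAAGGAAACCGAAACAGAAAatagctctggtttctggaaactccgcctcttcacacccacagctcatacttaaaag
That motif, on either strand, was in 11 of the 26 listed interferon-stimulated genes with a promoter in RefSeq and in 1.21% of all 27025 windows.

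The summed level of the 17 macrophage markers was 690 to 5910 CPM in SB/AKT/NRas + TAA, 402 to 10000 in SB/AKT/NRas + saline, 550 to 1140 in SB + TAA and 187 to 280 in SB + saline, where Itgax was at 0. SB/AKT/NRas + saline 1 had the 402 CPM. The median sum was 2310 and 2400 CPM in SB/AKT/NRas + TAA and SB/AKT/NRas + saline, against 883 and 221 CPM in SB + TAA and SB + saline. Of the markers that passed, Mmp12, Gpnmb and Ccr2 averaged highest in SB + TAA, whereas Cd63 averaged highest in SB/AKT/NRas + TAA (259 CPM against 222 CPM in SB + TAA). Clec7a and Ccl5, which are not among the 17 markers, also averaged highest in SB + TAA. T and NK cell markers summed to 17.7 to 37.6 CPM in SB/AKT/NRas + TAA, 15.0 to 32.1 in SB/AKT/NRas + saline, 25.7 to 81.0 in SB + TAA and 6.85 to 11.9 in SB + saline, and 1 of 16 tested, Ccl5, passed. Bile duct markers summed to 281 to 4970, 195 to 9160, 181 to 299 and 86 to 144 CPM in the same order of groups, with Cftr, Cldn4 and Muc13 among those at 0 in SB + saline. The macrophage and bile duct sums were highest in the same livers, at 10000 and 9160 CPM in SB/AKT/NRas + saline 3 and at 5910 and 4970 CPM in SB/AKT/NRas + TAA 5. Spp1 is on both lists, so the sums are not independent, and they were not compared without it. Of the bile duct markers, 0 of 16 tested passed in edgeR (median −2.11; 8 at an unadjusted p under 0.05, 1 passing in DESeq2 and 0 in limma-voom). Markers of stellate cells and fibroblasts summed to 417 to 1010, 341 to 1260, 501 to 1050 and 291 to 434 CPM, and 0 of 17 passed in edgeR (median −1.29; 7 at an unadjusted p under 0.05, 1 passing in DESeq2 and 0 in limma-voom). The part of these cell types in the interaction values was not tested.

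Genes of the extracellular matrix and its remodeling had a median of −1.86, with 39 of 40 negative, and 2 passed in edgeR, Mmp12 and Tnc (4 in DESeq2 and 0 in limma-voom). Tnc, the matrix protein tenascin-C, averaged 1.02, 1.82, 3.34 and 0.1 CPM in SB/AKT/NRas + TAA, SB/AKT/NRas + saline, SB + TAA and SB + saline, near the limit of detection, with −5.27 ± 1.29 (edgeR adjusted p = 0.0473, and 0.0809 without SB + TAA 4). Without SB + TAA 4, 1 of the 40 passed, without SB/AKT/NRas + saline 1, 16, and without both livers 12. Calls below 0 over all 19381 genes were 50, 509 and 319 in that order. Col1a1, the main fibrillar collagen, was next with −3.52 (edgeR adjusted p = 0.0541); it is named after its value was seen.

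Markers of fetal liver and liver tumors passed in 5 of 25 cases tested in edgeR, all below 0 (median −2.32), in 7 in DESeq2 and in 0 in limma-voom. The count was 3 without SB + TAA 4, 10 without SB/AKT/NRas + saline 1, 7 without both, and 1 to 10 with each liver left out in turn. Among all 19381 genes, the calls below 0 without the doubted livers were 50, 509 and 319. Afp, the fetal serum protein alpha-fetoprotein (ENSMUSG00000054932, chromosome 5, 90490737 to 90508907), had 72.8, 78.3, 35.1, 27.2 and 167 CPM in SB/AKT/NRas + TAA, 3.96, 112, 422 and 140 CPM in SB/AKT/NRas + saline, 35.3, 19.7, 33.9 and 55.2 CPM in SB + TAA and 2.14, 1.71, 0.802 and 3.0 CPM in SB + saline. The 3 higher livers of SB/AKT/NRas + saline exceeded every SB + TAA liver, whereas SB/AKT/NRas + saline 1 was near SB + saline. TAA changed Afp by −1.15 ± 0.56 in SB/AKT/NRas livers and by 4.22 ± 0.92 in SB livers, an interaction of −5.37 ± 1.08 (edgeR adjusted p = 0.0159). Akr1c18, a steroid-reducing enzyme (20α-hydroxysteroid dehydrogenase), averaged 78.9 ± 56.7, 170 ± 180, 21.6 ± 10.4 and 0.592 ± 0.489 CPM (SD), with −6.29 ± 1.37, and Golm1, a Golgi membrane protein, had −3.14 ± 0.68 (edgeR adjusted p = 0.0238 for each). Scd2 and Ly6d were the others.

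Metallothioneins, small proteins that bind zinc and copper, were called together. Mt2 (ENSMUSG00000031762, chromosome 8, 94172664 to 94173568) had 57.1, 70.4, 15.1, 28.9 and 114 CPM in SB/AKT/NRas + TAA, 7.47, 72.4, 328 and 167 CPM in SB/AKT/NRas + saline, 143, 37.5, 84.4 and 182 CPM in SB + TAA and 15.4, 3.98, 5.21 and 8.13 CPM in SB + saline. The lowest liver of SB/AKT/NRas + TAA was just under the highest of SB + saline, and SB/AKT/NRas + saline 1 lay within the SB + saline range. Its interaction was −5.08 ± 0.95 (edgeR adjusted p = 0.00952), and −5.11 without both livers (adjusted p = 0.000269). Mt1 had −3.83 ± 0.83 (edgeR adjusted p = 0.0238). The 2 genes are near copies and reads that map to both were left out, so their levels are uncertain. These were 2 of 28 genes of the acute phase list, and the rest of the list did not pass (median −0.07).
The 120 bases before the start of Mt2 are shown because metal induces these genes through the element TGCNCNC, in capitals on either strand.
Mt2 (chr8:94172498-94172617, plus strand, GRCm38.p6): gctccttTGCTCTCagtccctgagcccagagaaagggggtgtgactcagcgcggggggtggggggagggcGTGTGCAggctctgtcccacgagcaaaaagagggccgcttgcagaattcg
The motif is short and was present in 26.2% of all 27025 windows.

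Calcium-binding proteins of the S100 and annexin families passed in 2 of 20 cases tested in edgeR (median −1.14), 2 in DESeq2 and 0 in limma-voom. Below 0, 0 passed without SB + TAA 4, 5 without SB/AKT/NRas + saline 1 and 4 without both livers. In the same fits, 50, 509 and 319 of all 19381 genes were called below 0. Anxa2, which organizes membranes and actin (ENSMUSG00000032231), had 400, 390, 172, 132 and 483 CPM in SB/AKT/NRas + TAA, 36.5, 311, 612 and 260 CPM in SB/AKT/NRas + saline, 282, 60.4, 231 and 285 CPM in SB + TAA and 27.4, 26.7, 18.8 and 18 CPM in SB + saline. All SB + saline livers were below all treated livers, with SB/AKT/NRas + saline 1 next above them. Its interaction was −3.20 ± 0.75 and that of S100a11 −2.76 ± 0.66 (edgeR adjusted p = 0.0371 and 0.0411). Both lost the call without SB + TAA 4 (adjusted p = 0.0761 for each). Gsta1, a glutathione transferase that NRF2 induces, was the 1 gene of 33 in the glutathione and NRF2 list to pass in edgeR (3 in DESeq2 and 0 in limma-voom). It averaged 240, 105, 299 and 14.5 CPM, with −3.18 ± 0.61 (edgeR adjusted p = 0.0115), and its counts are uncertain because of its near-identical relatives. All SB/AKT/NRas + TAA livers, at 157 to 301 CPM, lay above the SB/AKT/NRas + saline livers, at 32.5 to 144 CPM, though that difference of 1.19 ± 0.41 did not pass by itself (edgeR adjusted p = 0.362).

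Lipid genes were called on both sides of 0. Pnpla3, a lipase and transacylase of lipid droplets (ENSMUSG00000041653, chromosome 15, 84167816 to 84189512), had 7.68, 15.1, 16, 10.7 and 12.5 CPM in SB/AKT/NRas + TAA, 5.28, 23.0, 38.6 and 20.8 CPM in SB/AKT/NRas + saline, 14.5, 2.37, 29.7 and 19.2 CPM in SB + TAA and 1.28, 0, 0 and 1.28 CPM in SB + saline. All treated livers were above all SB + saline livers. Its interaction was −5.39 ± 1.01, and that of Scd2, a stearoyl-CoA desaturase, −4.13 ± 0.91 (edgeR adjusted p = 0.00952 and 0.0262). Scd2 did not pass without SB + TAA 4 (−3.35, adjusted p = 0.0809), where it stood at 136 CPM against 21.3 to 44 CPM in the other SB + TAA livers. These were 2 of 24 genes of fatty acid and triglyceride synthesis, whose median was 0.18 (−0.25 with scaling by library size alone).

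Fitm1, in contrast, was above 0. It encodes a protein of the endoplasmic reticulum that partitions triglyceride into droplets (ENSMUSG00000022215, chromosome 14, 55575617 to 55576954), and had 93.8, 93.4, 84.0, 113 and 98.0 CPM in SB/AKT/NRas + TAA, 167, 118, 37.5 and 104 CPM in SB/AKT/NRas + saline, 5.38, 6.32, 2.75 and 25.2 CPM in SB + TAA and 161, 164, 105 and 185 CPM in SB + saline. TAA lowered it in SB livers by a log2 value of −3.91 ± 0.44 and changed it by −0.14 ± 0.35 in SB/AKT/NRas livers, so that every SB/AKT/NRas + TAA liver lay above every SB + TAA liver. The highest SB + TAA value was that of the liver with muscle transcripts. The interaction was 3.77 ± 0.55 (edgeR adjusted p = 0.00145), and 4.87 without SB + TAA 4 (adjusted p = 7.86e-07). It was the 1 gene of 18 lipid droplet proteins to pass.

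**Figure D4:**
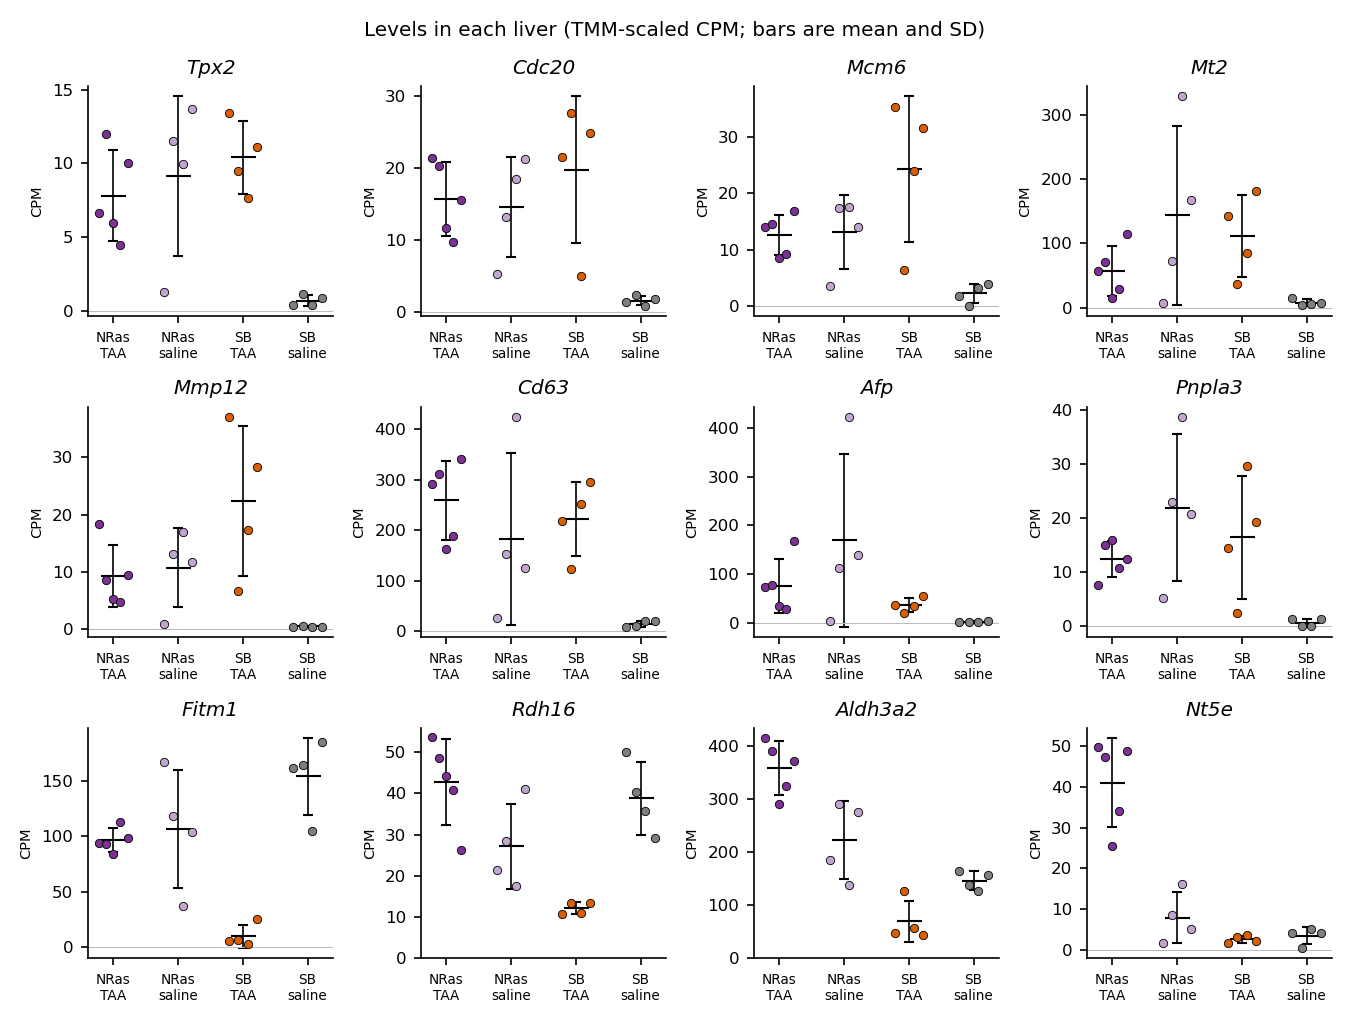
TMM-scaled CPM (y axis, linear) of 12 genes in each of the 17 livers, with SB/AKT/NRas + TAA, SB/AKT/NRas + saline, SB + TAA and SB + saline from left to right; points are livers and bars the mean and SD. In the first 8 genes the SB + saline livers are low and the 3 treated groups overlap, in Fitm1 and Rdh16 the SB + TAA livers are low, and in Aldh3a2 and Nt5e the SB/AKT/NRas + TAA livers stand highest.

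Rdh16, Nxpe2, Slc13a3, Gm15879, Gm13775, Cyp2c38 and Cyp2c29 fell with TAA in SB livers, while their TAA effect in SB/AKT/NRas livers did not pass. Those effects were not all near 0. Gm13775 had −2.01 ± 0.45 (edgeR adjusted p = 0.0598). Gm15879 had 1.32 ± 0.33 (edgeR adjusted p = 0.102), with all SB/AKT/NRas + TAA livers above all SB/AKT/NRas + saline livers. Rdh16, a retinol dehydrogenase (ENSMUSG00000069456, chromosome 10, 127801152 to 127846565), had 53.7, 48.6, 44.2, 40.9 and 26.3 CPM in SB/AKT/NRas + TAA, 21.5, 28.5, 17.6 and 41.0 CPM in SB/AKT/NRas + saline, 10.8, 13.4, 11.0 and 13.5 CPM in SB + TAA and 50.1, 40.4, 35.7 and 29.1 CPM in SB + saline. The 4 SB + TAA livers lay below all others. The interaction was 2.32 ± 0.34 (edgeR adjusted p = 0.00145), and 2.29 without both livers (adjusted p = 0.000458).

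Nxpe2 averaged 10.0 ± 2.2, 15.6 ± 6.37, 0.882 ± 0.749 and 15.7 ± 2.88 CPM in SB/AKT/NRas + TAA, SB/AKT/NRas + saline, SB + TAA and SB + saline (SD), with an interaction of 3.57 ± 0.57 (edgeR adjusted p = 0.00416). Slc13a3, which imports dicarboxylates into cells (ENSMUSG00000018459), had 41.4, 30.3, 21.9, 26.1 and 26.8 CPM in SB/AKT/NRas + TAA, 8.35, 21.9, 8.81 and 25.7 CPM in SB/AKT/NRas + saline, 3.36, 4.34, 5.5 and 8.11 CPM in SB + TAA and 15.8, 15.9, 8.42 and 15.8 CPM in SB + saline. No SB + TAA or SB + saline liver reached the lowest SB/AKT/NRas + TAA liver. It had 2.19 ± 0.48 (edgeR adjusted p = 0.0238) and was the 1 of 20 perivenous genes to pass, at a list median of 0.94. On the linear CPM scale it was reversed.

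A pair of predicted genes stood among the 6 called genes with the smallest p and a group mean of at least 5 CPM. Gm15879, annotated as an antisense RNA (ENSMUSG00000084790, chromosome 16, 4032839 to 4037847), had 15.0, 11.7, 11.0, 21.0 and 9.02 CPM in SB/AKT/NRas + TAA, 5.72, 8.0, 3.98 and 3.91 CPM in SB/AKT/NRas + saline, 2.69, 3.16, 2.14 and 3.52 CPM in SB + TAA and 12.4, 18.8, 10.8 and 8.56 CPM in SB + saline. TAA and the oncogenes each lowered it, by −2.10 ± 0.38 and −1.22 ± 0.35, yet livers with both overlapped SB + saline (a difference of 0.11). The interaction was 3.42 ± 0.50 (edgeR adjusted p = 0.00145), and 3.58 without both livers (adjusted p = 0.00038). Gm13775 (ENSMUSG00000081207, chromosome 4) averaged 9.33, 37.8, 0.168 and 76.3 CPM, with 6.53 ± 1.09 (edgeR adjusted p = 0.00565), a value that rests on 3 SB + TAA livers at 0.

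Drug-metabolizing cytochrome P450 enzymes passed in 2 of 34 cases tested in edgeR, both above 0 (median 0.74), against 4 in DESeq2 and 2 in limma-voom. Cyp2c38 (ENSMUSG00000032808) had 27.7, 24, 28.5, 29.9 and 19.8 CPM in SB/AKT/NRas + TAA, 36.1, 27.1, 12.5 and 36.1 CPM in SB/AKT/NRas + saline, 1.34, 9.08, 3.67 and 1.35 CPM in SB + TAA and 34.7, 23.9, 16.4 and 23.1 CPM in SB + saline, so only the SB + TAA livers were low. Its interaction was 2.64 ± 0.60 and that of Cyp2c29 2.44 ± 0.58 (edgeR adjusted p = 0.031 and 0.0419). Neither passed without SB + TAA 4 (adjusted p = 0.0809 and 0.0913). In the list 10 genes passed without SB/AKT/NRas + saline 1 and 8 without both livers, where 346 and 217 of all 19381 genes were called above 0. Counts within the Cyp2c family are uncertain because its genes are alike. Cyp2e1, the main enzyme that activates TAA, averaged 542, 852, 448 and 2043 CPM in SB/AKT/NRas + TAA, SB/AKT/NRas + saline, SB + TAA and SB + saline, with an interaction of 1.54 ± 0.51 that did not pass (edgeR adjusted p = 0.15). It was added after its values were seen.

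Genes of amino acid breakdown and the urea cycle had the most members above 0: 3 of 41 passed in edgeR (9 in DESeq2 and 5 in limma-voom), where 0.175% of all genes did on the adjusted p alone, and the fitted interaction was negative in 0 of the 41 (median 0.86), or in 3 of the 41 with scaling by library size alone (median 0.51). The single effects had medians of −0.92 for AKT/NRas in saline livers and −0.42 for TAA in SB livers, and TAA gave 0.40 in SB/AKT/NRas livers. Cth, the enzyme that makes cysteine from cystathionine (ENSMUSG00000028179, chromosome 3, 157894248 to 157925077), had 380, 307, 255, 327 and 405 CPM in SB/AKT/NRas + TAA, 204, 125, 65.1 and 126 CPM in SB/AKT/NRas + saline, 143, 294, 242 and 189 CPM in SB + TAA and 275, 298, 263 and 274 CPM in SB + saline. The SB/AKT/NRas + saline livers were below both SB/AKT/NRas + TAA and SB + saline, without overlap. TAA raised Cth in SB/AKT/NRas livers by 1.37 ± 0.27 (edgeR adjusted p = 0.0209) and changed it by −0.35 ± 0.28 in SB livers, an interaction of 1.72 ± 0.39 (edgeR adjusted p = 0.03).

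Mat1a, the liver's methionine adenosyltransferase (ENSMUSG00000037798), had 2140, 2470, 2530, 2820 and 1950 CPM in SB/AKT/NRas + TAA, 1470, 1190, 537 and 1780 CPM in SB/AKT/NRas + saline, 1470, 1930, 1980 and 1600 CPM in SB + TAA and 2740, 2120, 2380 and 2730 CPM in SB + saline. As with Cth, TAA livers with the oncogenes lay above all saline livers with them. Mat1a had an interaction of 1.45 ± 0.34 and Slc25a15, the mitochondrial ornithine carrier, 0.95 ± 0.23 (edgeR adjusted p = 0.0371 and 0.0406). Without SB + TAA 4 no gene of the list passed (adjusted p = 0.0712 for Cth, 0.0797 for Mat1a and 0.105 for Slc25a15), without SB/AKT/NRas + saline 1, 26 did, and without both livers 21. Over all 19381 genes, 346 were called above 0 without SB/AKT/NRas + saline 1 and 217 without both livers, against 32 with all livers. A call also needs an absolute log2 value over 1, which a passing member does not.

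The 1 called gene that was more than additive was Nt5e, the ecto-5′-nucleotidase CD73 that makes adenosine from AMP outside cells (ENSMUSG00000032420, chromosome 9, 88327197 to 88372092). It had 49.7, 47.3, 25.4, 34 and 48.6 CPM in SB/AKT/NRas + TAA, 1.76, 8.7, 16.2 and 5.21 CPM in SB/AKT/NRas + saline, 1.68, 3.16, 3.67 and 2.16 CPM in SB + TAA and 4.28, 0.568, 5.21 and 4.28 CPM in SB + saline. Every SB/AKT/NRas + TAA liver was above every other liver. Nt5e rose with TAA in SB/AKT/NRas livers by 2.30 ± 0.37 (edgeR adjusted p = 0.00396) and changed by −0.49 ± 0.57 in SB livers, and AKT/NRas in saline livers gave 1.14 ± 0.49, neither passing (edgeR adjusted p = 0.673 and 0.157). The interaction was 2.79 ± 0.69 (edgeR adjusted p = 0.0473), close to the threshold. It was 2.69 without SB + TAA 4 (adjusted p = 0.105), 2.51 without SB/AKT/NRas + saline 1 (adjusted p = 0.0165) and 2.42 without both (adjusted p = 0.0352). It was the 1 gene of 23 tested to pass in the list of nucleotide breakdown and adenosine.

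Aldh3a2, a fatty aldehyde dehydrogenase (ENSMUSG00000010025, chromosome 11, 61223417 to 61267464), was the reversed gene. It had 415, 390, 290, 324 and 372 CPM in SB/AKT/NRas + TAA, 186, 291, 139 and 276 CPM in SB/AKT/NRas + saline, 48.1, 127, 57.8 and 44.9 CPM in SB + TAA and 164, 138, 126 and 158 CPM in SB + saline. Livers with both treatments were higher than every SB + TAA and SB + saline liver, and overlapped SB/AKT/NRas + saline only at its highest liver. TAA lowered it in SB livers (−1.08 ± 0.27, edgeR adjusted p = 0.0181) and gave 0.68 ± 0.25 in SB/AKT/NRas livers (adjusted p = 0.439), an interaction of 1.77 ± 0.37 (edgeR adjusted p = 0.0218). Without SB + TAA 4 it was 1.6 (adjusted p = 0.0534) and without both livers 1.53 (adjusted p = 0.0218).

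The signaling lists closest to the plasmids had no member that passed with all livers in edgeR. Of RAS-MAPK feedback and ETS targets, 0 of 20 tested passed at a median of −2.25, with 11 at an unadjusted p under 0.05, 1 passing in DESeq2 and 0 in limma-voom. Of immediate early and AP-1 genes, 0 of 16 passed at a median of −1.93, with 8 at an unadjusted p under 0.05, 2 passing in DESeq2 and 0 in limma-voom. Egr1, an immediate early transcription factor downstream of ERK and a member of both, had 15.4, 9.15, 5.96, 3.44 and 7.02 CPM in SB/AKT/NRas + TAA, 4.84, 25.1, 29.3 and 17.2 CPM in SB/AKT/NRas + saline, 26.6, 7.89, 8.26 and 10.5 CPM in SB + TAA and 4.28, 1.14, 4.01 and 4.71 CPM in SB + saline. The SB/AKT/NRas + TAA livers overlapped SB + saline, while SB/AKT/NRas + saline and SB + TAA lay above it. Its interaction was −3.10 ± 0.78 (edgeR adjusted p = 0.0541, and 0.00623 without both livers). Dusp5, a phosphatase of nuclear ERK, had −4.65 ± 1.33 (edgeR adjusted p = 0.0959, and 0.0175 without both), at means of 1.47, 3.58, 1.54 and 0.107 CPM in SB/AKT/NRas + TAA, SB/AKT/NRas + saline, SB + TAA and SB + saline. Without both livers, 3 of the 20 and 5 of the 16 passed, where 319 of all 19381 genes were called below 0. Map4k4, a kinase upstream of the JNK pathway (ENSMUSG00000026074), was called outside these lists, with means of 15.8, 28, 20.3 and 9.72 CPM in SB/AKT/NRas + TAA, SB/AKT/NRas + saline, SB + TAA and SB + saline and an interaction of −1.89 ± 0.33 (edgeR adjusted p = 0.00694).

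In 11 more pathway lists no member passed with all livers in edgeR, while 3 to 15 of their members had an unadjusted p under 0.05 and 0 to 2 passed in DESeq2 or limma-voom. Their medians ran from −0.54 for ATF4 targets and −0.32 for cholesterol synthesis and uptake to 0.92 for periportal genes and 0.90 for male-biased, growth hormone dependent genes, with 0.79 for bile acid synthesis and transport and 0.54 for fatty acid oxidation. In the fatty acid oxidation list 33 of 35 values were positive, led by Pex11a, which divides peroxisomes, with 1.43 ± 0.39 (edgeR adjusted p = 0.0774, and 0.045 without both livers). The respiratory chain had a median of 0.34 with none of its 35 genes negative. With scaling by library size alone its median was −0.04 and 22 of the 35 were negative, and the medians of fatty acid and triglyceride synthesis, lipid droplet proteins, glucose metabolism, coagulation and complement, circadian clock genes and nucleotide breakdown turned negative as well, at −0.25, −0.15, −0.06, −0.01, −0.18 and −0.23. Without both livers, 11 of 30 male-biased genes, 7 of 20 periportal genes and 6 of 26 bile acid genes tested passed above 0. In that fit 217 of all 19381 genes were called above 0, by the rule that also needs an absolute log2 value over 1.

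**Figure D5:**
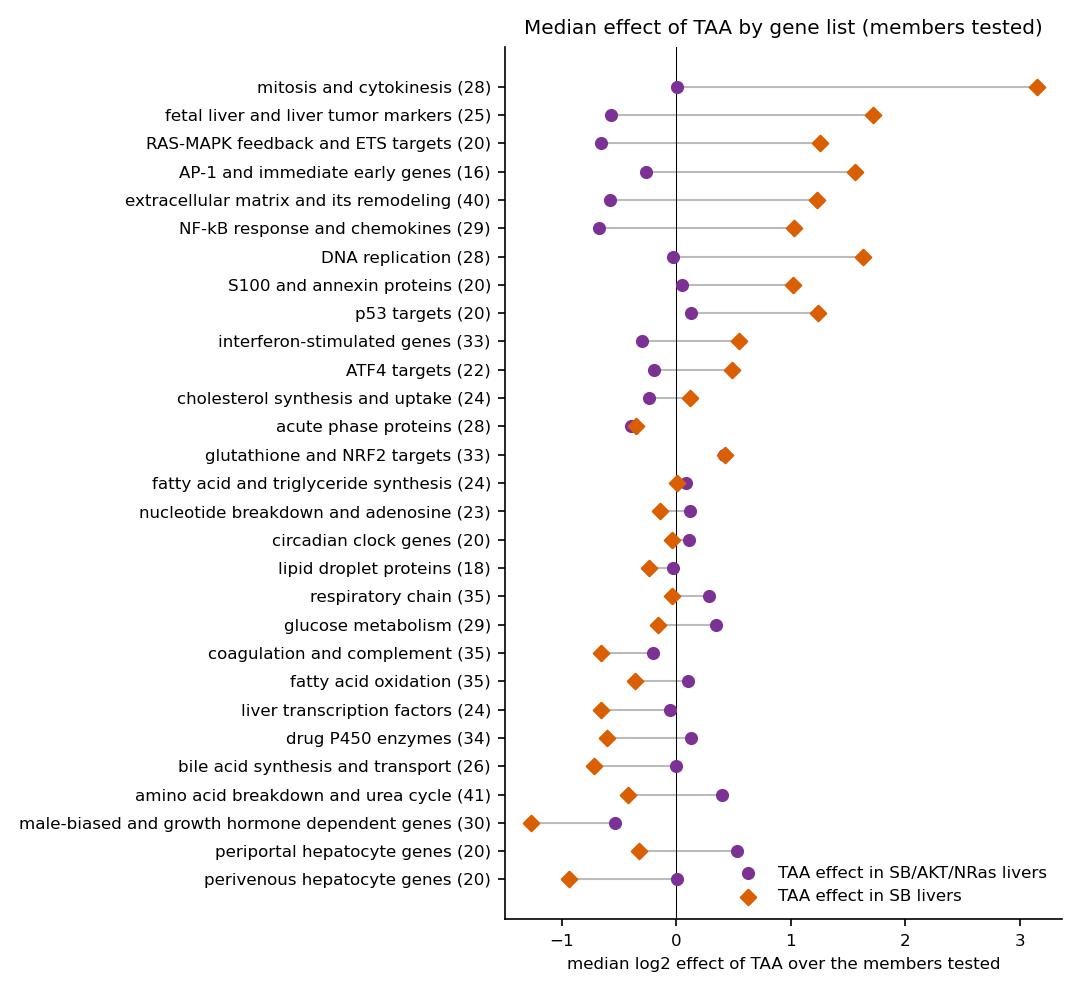
For 29 pathway lists (members tested in parentheses), the median log2 effect of TAA is given in SB/AKT/NRas livers (circles) and in SB livers (diamonds), ordered by the median interaction from the most negative at the top. Mitosis genes have a median of 0.01 in SB/AKT/NRas livers and 3.15 in SB livers, and amino acid breakdown has 0.40 and −0.42.

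Some genes not called with all livers were called without both doubted livers, and those named here were called without 1 of them as well. Rcan2, a regulator of calcineurin, had 14.4, 14.8, 14.7, 12.7 and 11.5 CPM in SB/AKT/NRas + TAA, 11.4, 13.9, 10.8 and 18.6 CPM in SB/AKT/NRas + saline, 0.672, 1.58, 0.917 and 22.4 CPM in SB + TAA and 14.1, 11.4, 9.22 and 8.99 CPM in SB + saline. The 22.4 CPM is SB + TAA 4, the liver with muscle transcripts, and the interaction was 0.66 ± 0.73 with it (edgeR adjusted p = 0.726) and 3.34 without it (adjusted p = 0.000916). Ahcy, which hydrolyzes S-adenosylhomocysteine in the methionine cycle, had 71.4, 91.5, 114, 124 and 77.7 CPM in SB/AKT/NRas + TAA, 183, 60.5, 34.4 and 73.5 CPM in SB/AKT/NRas + saline, 76.6, 118, 78.9 and 49.8 CPM in SB + TAA and 283, 234, 255 and 280 CPM in SB + saline. The 183 CPM is SB/AKT/NRas + saline 1, and the interaction was 1.84 ± 0.46 (edgeR adjusted p = 0.0526) with all livers and 2.48 without that liver (adjusted p = 0.000319). Cyp2c67, Hnf4aos and Fgf1 likewise passed without SB/AKT/NRas + saline 1 (interactions of 2.52, 4.32 and 2.17, edgeR adjusted p = 0.000321, 0.000317 and 0.000338). Hspb1, a small heat shock protein, was a reversed gene of this kind, whose SB/AKT/NRas + TAA livers lay above all SB/AKT/NRas + saline and SB + TAA livers. It averaged 20.9 ± 5.26, 9.30 ± 1.05, 8.80 ± 3.59 and 11.2 ± 4.1 CPM in SB/AKT/NRas + TAA, SB/AKT/NRas + saline, SB + TAA and SB + saline (SD), with 1.49 ± 0.40 (edgeR adjusted p = 0.0782, 0.0413 without SB/AKT/NRas + saline 1 and 0.0326 without both livers).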

How the data were processed

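RNA from snap-frozen liver was sequenced as pooled, indexed 3′ libraries, 1 per mouse. Per the study's methods, the authors split the reads by index (Sabre), mapped them (STAR) against GRCm38 extended by human NRAS and MET, collapsed duplicates by unique molecular identifier, and assigned reads with featureCounts 1.6.4, same strand only, minimum mapping quality 10, all within RNAsik. The deposited values are whole, unnormalized counts per gene. The 2 deposited tables held equal counts in 1283208 of 1283208 cells compared. Total counts were 2152510 to 3399247 per liver, and low genes rest on a few counts. Groups were taken from the sample titles. No libraries were identical (0 pairs).

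A gene was tested if 2 or more libraries reached 0.5 CPM (25698 of 53467 had no count). edgeR 4.0.16 (R 4.3.3) with TMM scaling and quasi-likelihood F tests was fitted to all 24 libraries with 6 groups, so that the groups not described here added to the estimate of spread. P-values were adjusted over all 19381 genes by Benjamini-Hochberg. A gene was called at an adjusted p under 0.05 and an absolute log2 value over 1, and a member of a list passed at an adjusted p under 0.05 alone. Errors of log2 values (SE) are the absolute log2 value divided by the square root of its quasi-likelihood F, an approximate standard error. Errors of CPM are SDs, and CPM values are TMM-scaled. Fitted log2 values of genes with 0 counts in a group, and their errors, depend on the prior count and are no bound.

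The members and gene lists were chosen with earlier results of these data known. Named genes were those with the 10 smallest p in each class at a group mean of at least 5 CPM, up to 4 passing members of each list (2 members for 3 lists without any), and up to 5 per class not called with all livers but called without SB + TAA 4 and SB/AKT/NRas + saline 1; others are named as chosen later. Alternatives were limma-voom (limma 3.58.1), DESeq2 1.42.0, RLE factors, library size alone, other filters, robust estimation, the 4 groups alone, a replicate block, a linear scale and each liver left out. Tested on simulated counts for 19381 genes, the interaction test recovered 88 of 100 genes changed 4-fold and 9 of 100 changed 2-fold, with 0 false calls. The changed genes had a mean of at least 5 CPM, and all libraries otherwise shared the same mean profile. Genes near 0 in a group, single effects and deviating livers were therefore not covered. RefSeq promoters (GRCm38.p6) were searched with Python 3.11.15, and figures drawn with matplotlib 3.10.9.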

Additional observations from a re-analysis of the deposited data

Results flagged for a closer look

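The effect of TAA differed between SB/AKT/NRas and SB livers, by the edgeR interaction test (adjusted p under 0.05 and an absolute log2 value over 1), in 45 named genes. Most genes were named because they were called or passed, so this number is no result. Over all genes 145 of 19381 (0.748%) were called. The difference, in log2 units, was above 0 in Gm15879 (3.42), Rdh16 (2.32), Fitm1 (3.77), Nxpe2 (3.57), Gm13775 (6.53), Aldh3a2 (1.77), Nt5e (2.79), Slc13a3 (2.19), Cyp2c38 (2.64), Cyp2c29 (2.44), Cth (1.72) and Mat1a (1.45). It was below 0 in Ckap2l (−4.79), Mmp12 (−5.77), Clec7a (−2.63), Knstrn (−4.78), Map4k4 (−1.89), Tpx2 (−4.1), Prc1 (−4.33), Birc5 (−3.58), Cdc20 (−3.62), Mcm6 (−3.45), Lig1 (−2.55), Rfc4 (−1.53), Mcm7 (−1.62), Bax (−1.18), Tnfrsf10b (−4.67), Gsta1 (−3.18), Pnpla3 (−5.39), Scd2 (−4.13), Mt2 (−5.08), Mt1 (−3.83), Cxcl10 (−3.47), Isg15 (−1.48), Ccl5 (−2.8), Ccl2 (−4.14), Tnc (−5.27), Afp (−5.37), Golm1 (−3.14), Akr1c18 (−6.29), Anxa2 (−3.2), S100a11 (−2.76), Cd63 (−3.35), Gpnmb (−4.66) and Ccr2 (−2.67).

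Single livers also stood apart from the rest of their group by Dixon's test on the log2 scale, which by chance picks about 1 in 20 groups; here it picked 19 of 232 groups (8.19%). SB/AKT/NRas + saline 1 was the low liver of its group for Mmp12 (0.879 CPM), Tpx2 (1.32 CPM), Mcm6 (3.52 CPM) and Gsta1 (32.5 CPM). SB/AKT/NRas + saline 3 was low for Pex11a (64.2 CPM) and high for Ccl5 (15.1 CPM), and SB/AKT/NRas + TAA 5 was low for Fgf1 (10.5 CPM). In SB + TAA, replicate 1 was high for Gm13775 (0.672 CPM), replicate 3 low for Cdc20 (4.89 CPM) and replicate 2 low for Anxa2 (60.4 CPM). In SB + saline, replicate 4 was high for Knstrn (1.71 CPM), Tnfrsf10b (0.428 CPM) and Dusp5 (0.428 CPM), replicate 3 low for Slc13a3 (8.42 CPM) and high for Tnc (0.401 CPM) and Gpnmb (0.802 CPM), replicate 2 low for Nt5e (0.568 CPM) and Egr1 (1.14 CPM), and replicate 1 high for Prom1 (0.856 CPM). Several of these are single counts against 0.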

How the results depend on the processing

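The number of genes called (145, with 113 below 0 and 32 above 0) was within 1.5 times of that value with RLE factors, filterByExpr, at least 5 CPM in 4 libraries and the replicate block, and moved further in other settings. It was 83 with limma-voom (40 below 0), 294 with DESeq2 (211 below 0, 83 above 0), 470 with library size alone (448 below 0), 794 with no filter (541 and 253), 93 with robust estimation (65 below 0), 82 with the 4 groups alone (63 and 19) and 536 without both doubted livers (319 and 217). With 1 liver left out it ranged from 48 to 855, from 36 to 509 below 0 and from 12 to 346 above 0. Less than additive genes numbered 81, 289, 467, 781, 92, 80 and 533 in the same 7 settings, in that order, and 48 to 849 with 1 liver left out, against 143. More than additive genes (1) numbered 0 with limma-voom, filterByExpr, at least 5 CPM and robust estimation, 6 with no filter, 2 on the linear scale and 0 to 2 with 1 liver left out. Reversed genes (1) numbered 2 with limma-voom, library size alone, the replicate block, the linear scale and without both livers, 4 with DESeq2, 7 with no filter and 0 to 5 with 1 liver left out. The human NRAS difference ranged from −1.46 to −0.10 with 1 liver left out. The cause of these changes was not tested.

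All 145 genes kept their sign in every setting in which they were tested, and no named gene reversed. The settings reuse the livers from which the genes were picked, so kept signs are no independent check. Of the named genes, 28 lost the call with limma-voom and 17 without SB + TAA 4, and 10 gained it without both livers. Among the 10, Rcan2, Cyp2c67, Ahcy, Hnf4aos, Fgf1 and Hspb1 had been named because they gained it, so their gain is no result. Same-numbered livers did not deviate together (mean correlation −0.0328 over 24 pairs, from −0.294 to 0.0829, against 0.0093 for other pairs), and 2 of 17 livers correlated best with their own number, so the numbers were not taken as pairs. A fit with the replicate number as a block called 155 genes, 117 of them among the 145. At these depths (2152510 to 3399247 counts per liver), 2-fold interactions were mostly below what the test recovered in the simulation.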

Other observations

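Other called genes, named after their values were seen, belonged to programs not described above. Ccnd1, the cyclin that carries hepatocytes out of quiescence, averaged 130 CPM in SB/AKT/NRas + TAA, 133 in SB/AKT/NRas + saline, 204 in SB + TAA and 38.2 in SB + saline, with an interaction of −2.48 ± 0.50 (edgeR adjusted p = 0.0162). Abcb1a, a drug efflux pump, averaged 15.8, 20.8, 19.9 and 4.08 CPM in that order of groups, with −2.70 ± 0.55 (edgeR adjusted p = 0.0159), and Id1, an inhibitor of helix-loop-helix factors induced by BMP signals, 14.9, 21, 33.9 and 8.89 CPM, with −2.47 ± 0.45 (edgeR adjusted p = 0.00843). Il33, an alarmin cytokine, averaged 8.61, 14.3, 7.77 and 1.13 CPM, with −3.52 ± 0.77 (edgeR adjusted p = 0.0238).

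Above 0, Pparg, a nuclear receptor of lipid storage, averaged 10, 9.46, 1.86 and 7.76 CPM in SB/AKT/NRas + TAA, SB/AKT/NRas + saline, SB + TAA and SB + saline, with 2.09 ± 0.49 (edgeR adjusted p = 0.0371). Pltp, the phospholipid transfer protein of plasma, averaged 30.5, 27.9, 17.5 and 41.2 CPM, with 1.39 ± 0.30 (edgeR adjusted p = 0.0238), and Prlr, the prolactin receptor, 65.8, 34.2, 51.5 and 70.5 CPM, with 1.39 ± 0.32 (edgeR adjusted p = 0.0363). Slc22a3, an organic cation transporter, was at 0 counts in all 4 SB + TAA livers and averaged 2.37, 1.66 and 3.80 CPM in SB/AKT/NRas + TAA, SB/AKT/NRas + saline and SB + saline.

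Cell types whose markers sat near 0 in the interaction were Kupffer cells, the resident liver macrophages (median −0.02, 0 of 13 passing in edgeR, DESeq2 and limma-voom, 1 at an unadjusted p under 0.05), and sinusoidal endothelium (median 0.00, 0 of 17 passing in the 3 tools, 5 at an unadjusted p under 0.05). With library size alone both medians were −0.40. Summed Kupffer markers were 449 to 810 CPM in SB/AKT/NRas + TAA, 395 to 648 in SB/AKT/NRas + saline, 375 to 500 in SB + TAA and 285 to 493 in SB + saline, and the 4 groups overlapped.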
